A study of Homo sapiens with 18 samples.

Results

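The 10 genes described here make, clear, move or sense prostaglandin E2. They are the cyclooxygenases PTGS1 and PTGS2, the prostaglandin E synthases PTGES, PTGES2 and PTGES3, the degrading enzyme HPGD, the transporters ABCC4 and SLCO2A1 and the receptors PTGER2 and PTGER4. Members were taken by symbol, from probe sets tied only to these genes. All 10 were measured, out of 18132 genes on the array, by 35 of the 44994 probe sets that were tied to a single gene symbol.

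Expression was measured on 18 Affymetrix arrays, 3 for each of 6 groups, with total RNA of 2 human lines of colorectal cancer, WiDr and HT29. The groups are WiDr treated with AZ628, WiDr treated with vehicle, HT29 treated with AZ628, HT29 treated with vehicle, WiDr transduced with an shRNA against IKKα, and WiDr transduced with a control shRNA. AZ628 is a RAF kinase inhibitor, which the labels call a BRAF inhibitor. IKKα, encoded by CHUK, is a kinase of the NF-κB pathways. Both lines are known to carry an activated BRAF allele, and cell line collections record WiDr as a derivative of HT29. The labels give neither the dose and duration of AZ628, nor the vehicle, nor the hairpin sequences, and do not say whether the shRNA lines are clones or pools or whether the 3 arrays of a group are separate cultures. The p-values below therefore rest on differences between the arrays of a group, and these may be technical only. A description label writes the arrays transduced with the IKKα hairpin as a control, and their group was taken from the titles.

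Prostaglandin E2 is made from arachidonic acid that phospholipases release from membranes. The cyclooxygenases turn it into prostaglandin H2: PTGS1 is the form found in many resting tissues, and PTGS2, also called COX-2, is the inducible form that is raised in many colorectal tumours. Prostaglandin E synthases complete the step to prostaglandin E2, which signals through the receptors EP2 and EP4 (PTGER2 and PTGER4). HPGD, the 15-hydroxyprostaglandin dehydrogenase, begins its breakdown and is often low in colorectal cancer, while SLCO2A1 imports prostaglandins and ABCC4 exports them.

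Promoter sequences are shown for PTGS2, HPGD and PTGS1, the 3 of the 10 genes with the largest responses to a treatment on their brightest probe sets. Each is 300 bases long, from 250 bases before to 50 after the start given by RefSeq on GRCh38.p14, which is not the source of the array's annotation. The PTGS2 promoter is chr1:186680374-186680673 on the minus strand, that of HPGD is chr4:174522844-174523143 on the minus strand, and that of PTGS1 is chr9:122375052-122375351 on the plus strand. The PTGS1 window lies inside the RefSeq span of that gene, chr9:122370533-122395703, so the start used there is not the first base of the span. Capitals mark the matches to the motifs described next.
PTGS2: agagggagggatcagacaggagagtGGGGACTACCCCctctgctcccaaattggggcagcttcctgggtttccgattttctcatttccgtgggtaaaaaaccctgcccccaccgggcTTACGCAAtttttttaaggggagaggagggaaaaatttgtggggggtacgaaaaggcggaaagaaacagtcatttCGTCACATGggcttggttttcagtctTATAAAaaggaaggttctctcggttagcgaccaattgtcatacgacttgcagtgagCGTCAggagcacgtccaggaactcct
HPGD: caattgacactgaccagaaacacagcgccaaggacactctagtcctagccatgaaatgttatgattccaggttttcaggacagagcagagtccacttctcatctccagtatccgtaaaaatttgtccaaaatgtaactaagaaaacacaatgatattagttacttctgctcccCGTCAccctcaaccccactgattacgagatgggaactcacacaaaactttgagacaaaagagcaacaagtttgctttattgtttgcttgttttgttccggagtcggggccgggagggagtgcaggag
PTGS1: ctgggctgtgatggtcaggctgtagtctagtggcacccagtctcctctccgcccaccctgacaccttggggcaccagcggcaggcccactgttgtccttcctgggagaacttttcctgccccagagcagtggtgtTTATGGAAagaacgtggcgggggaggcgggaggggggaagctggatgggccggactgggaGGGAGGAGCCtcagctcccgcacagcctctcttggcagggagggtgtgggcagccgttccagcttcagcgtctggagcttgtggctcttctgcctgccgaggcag

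A total of 7 motifs were searched on both strands, namely TATAAA for the TATA box, CGTCA for one arm of a cAMP response element (a CRE arm), CACATG for the E-box, TTNCNNAA for C/EBP, TGANTCA for AP-1, CGGAAG for ETS factors and, for NF-κB, GGG and CC with any 5 bases between them. The PTGS2 promoter held a TATA box at -32 to -27 from the start, a CRE arm at -58 to -54 and another at 25 to 29, and an E-box at -55 to -50 that overlaps the first of these arms. It also held 4 overlapping NF-κB matches on both strands within -225 to -214, and a C/EBP match at -133 to -126 that reads on both strands. In the HPGD promoter the search found a CRE arm at -77 to -73 and no other match, and in the PTGS1 promoter an NF-κB match at -55 to -46 and a C/EBP match at -115 to -108. Of all 35116 promoters of this length, 11.5% held the TATA box, 24.6% the CRE arm, 11.1% the E-box, 58.7% the NF-κB motif, 36.8% the C/EBP motif, 7.71% the AP-1 motif and 19.5% the ETS motif.

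Promoters were matched for 9 of the 10 genes, SLCO2A1 being the exception. The NF-κB motif was present in 7 of them, the CRE arm in 5, the C/EBP motif in 2, the ETS motif in 2, the TATA box and the E-box in 1 each, and the AP-1 motif in 0. The promoter GC content was 50.7% for PTGS2, 44.7% for HPGD and 64.7% for PTGS1, against a median of 58.7% over all promoters. These matches are letters in a short window, not sites of binding.

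Values are log2 RMA signals, in which a difference of 1 is a 2-fold change. For each gene the brightest of its probe sets, by mean, was used, so levels can be compared between arrays for a gene but not between genes. All adjusted p-values are limma's, two-sided, with Benjamini-Hochberg adjustment over all genes of a contrast, or over all probe sets where a probe set is tested, and a gene was called at an adjusted p below 0.05. Arrays correlated at 0.9971 to 0.9985 within groups and at 0.9555 to 0.9963 between them. CHUK, the target of the hairpin, stood at 7.68, 7.23 and 7.65 with IKKα shRNA, against 9.68, 9.45 and 9.78 with control shRNA. DUSP6, a feedback phosphatase that reports ERK activity, was lower with AZ628 than with vehicle by a log2 difference of -4.14 in WiDr and -4.66 in HT29. Colonic epithelial markers were high, with a median of 12.31 over 9 genes, up to 14.20 for KRT18 and down to 5.57 for CDX1.

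Markers of other cell types covered a range from near the floor to the middle of the signal scale, where the median gene stood at 6.833. Fibroblast markers ran over 3.22 (COL3A1) to 5.61 (COL1A1), endothelial markers over 4.16 (CDH5) to 6.21 (VWF) and blood cell markers over 3.18 (PTPRC) to 7.08 (CD68). With IKKα shRNA against control shRNA, 2 of 7 fibroblast markers, COL3A1 (0.50) and LUM (2.84), and 1 of 5 endothelial markers, TEK (1.20), were called higher, where 15.9% of all genes were. In the same comparison 1 of 6 blood cell markers and 3 of 9 epithelial markers were called, all of them lower. The share of all genes called there in either direction was 34.9%. LUM was also higher with AZ628, by 1.25 in WiDr and 1.77 in HT29. Of the 6 blood cell markers, 1 was called higher and 1 lower with AZ628 in each line. CD68 was higher with AZ628 by 0.72 in WiDr and 0.50 in HT29. CD14 was lower, at 4.14 with AZ628 against 5.10 with vehicle in WiDr and 4.12 against 4.58 in HT29. Among the fibroblast markers 1 was called lower with AZ628 in WiDr and 0 in HT29, and COL1A2 stood at 4.25 against 4.48 with vehicle in WiDr. In all, AZ628 called 5 of these 18 non-epithelial markers in WiDr and 3 in HT29, where 44.6% and 43.6% of all genes were called.

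The summed linear signal of the fibroblast list was 228.37 to 250.37 with IKKα shRNA and 154.85 to 158.38 with control shRNA. For AZ628 it was 220.02 to 244.76 against 177.76 to 195.44 with vehicle in HT29, and 177.61 to 193.65 against 160.15 to 195.14 with vehicle in WiDr. The blood cell sum was 381.4 to 413.66 with AZ628 against 310.84 to 359.04 with vehicle in HT29, and 300.12 to 339.24 against 278.75 to 286.41 in WiDr. The epithelial sum was lower in the treated group each time, at 54150 to 55867 with IKKα shRNA against 62283 to 64457 with control shRNA, 49924 to 51912 with AZ628 against 57952 to 58872 with vehicle in WiDr, and 49324 to 51916 with AZ628 against 53066 to 55671 with vehicle in HT29. Such sums weigh the brightest genes most, and with AZ628 the epithelial list went both ways. Of its 9 genes, 3 were called higher and 4 lower in WiDr, and 3 higher and 3 lower in HT29. The shares of all genes called were 44.6% and 43.6%. The median log2 differences of the list were 0.03 and 0.01. The part of these shifts in the results below was not tested.

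Calls among the members are given per treatment comparison, beside the share of all genes called. AZ628 changed 6 of the 10 genes in WiDr, 2 higher and 4 lower, where 44.6% of all genes were called, 23.4% higher and 21.1% lower. It changed 7 in HT29, 2 higher and 5 lower, where 43.6% of all genes were called, 22.5% higher and 21% lower. IKKα shRNA against control shRNA changed 6, all higher, where 34.9% of all genes were called and 15.9% were called higher. Counted in either direction, the shares of members called lie above these backgrounds, though each share rests on 10 genes. The members were chosen with earlier results of these data known, so these comparisons with all genes are descriptive and carry no test. The 2 of 10 called higher with AZ628 in each line lie near the 23.4% and 22.5% of all genes called higher. The median absolute log2 difference was 0.62 over the members and 0.18 over all genes for AZ628 in WiDr, 0.44 and 0.18 for AZ628 in HT29, and 0.23 and 0.15 for IKKα shRNA. In the same comparisons the arrays of both groups did not overlap for 7, 6 and 6 members, against 51.1%, 49.1% and 46.7% of all genes.

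**Figure D1:**
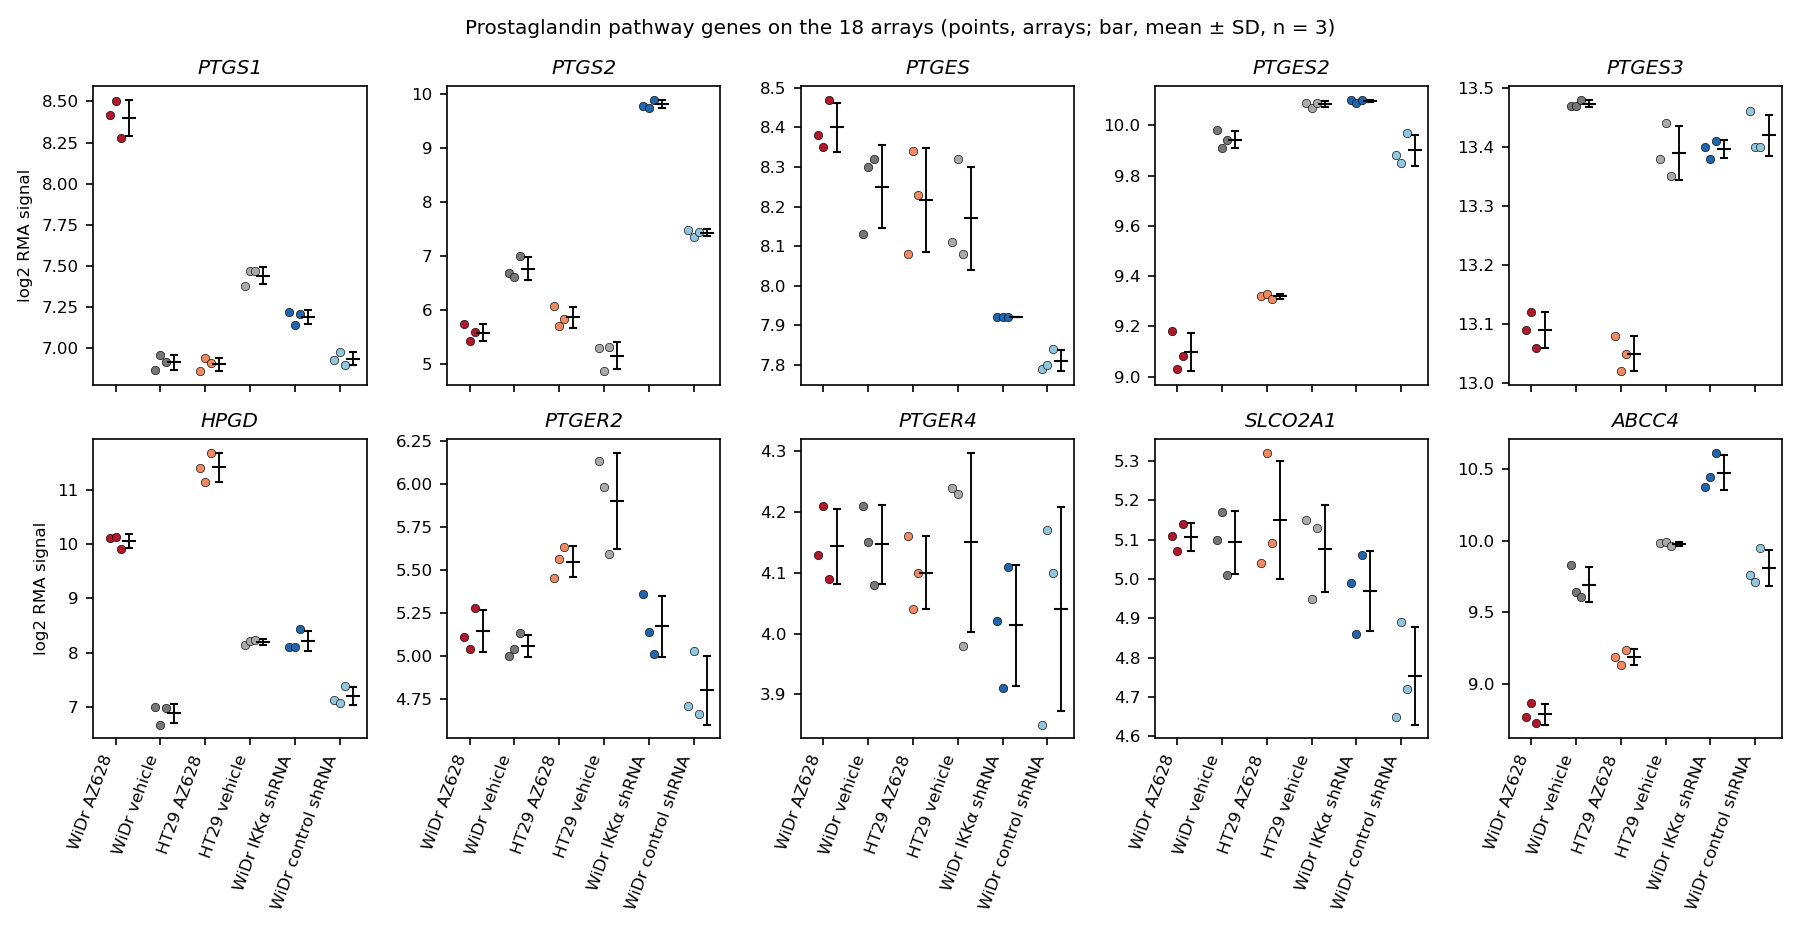
Log2 RMA signal of each of the 10 genes (y axis, a scale of its own per panel) on every array of the 6 groups (x axis), with points for arrays and bars for the mean ± SD of 3 arrays. PTGS2 peaked at 9.74 to 9.89 with IKKα shRNA, HPGD was highest on the AZ628 arrays of both lines, and PTGS1 was highest on the AZ628 arrays of WiDr.

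PTGS2 showed its highest level with IKKα shRNA, and it moved in opposite directions in the 2 lines under AZ628. Its signal was 9.78, 9.74 and 9.89 with IKKα shRNA and 7.48, 7.36 and 7.45 with control shRNA. Every IKKα shRNA array lay above every other array of the study. The log2 difference was 2.37 (SE 0.13), which is 5.18-fold, with an adjusted p of 1.3e-10, and PTGS2 stood at the 99.7th percentile of absolute change over all genes. Against WiDr with vehicle the difference was 3.03, or 8.19-fold.

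PTGS2 also differed between control shRNA and vehicle in WiDr. The control shRNA arrays lay above the WiDr vehicle arrays, which read 6.69, 6.61 and 7.01, by a log2 difference of 0.66 (adjusted p = 0.00175). Control shRNA against vehicle called 3 of the 10 members, 1 higher and 2 lower, where 22.2% of all genes were called. Transduction, the control hairpin, vehicle treatment and any difference in culture cannot be told apart in that comparison.

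With AZ628, PTGS2 fell in WiDr, at 5.74, 5.43 and 5.59 with AZ628 against 6.69, 6.61 and 7.01 with vehicle. The groups did not overlap, and the log2 difference was -1.18 (SE 0.13, adjusted p = 3.99e-07), so vehicle was 2.27-fold above AZ628. In HT29 PTGS2 rose, at 6.08, 5.70 and 5.83 with AZ628 against 5.30, 4.87 and 5.32 with vehicle, a log2 difference of 0.71 (SE 0.13, adjusted p = 0.000165). The response in HT29 exceeded that in WiDr by 1.89 on the log2 scale (SE 0.18, adjusted p = 2.54e-06).

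The lines also differed at baseline. HT29 vehicle arrays read PTGS2 lower than WiDr vehicle arrays by a log2 difference of -1.61 (adjusted p = 2.75e-08), whereas with AZ628 the difference between HT29 and WiDr was 0.29 (interval 0.02 to 0.56, adjusted p = 0.101) and the arrays of the lines overlapped. The order of the group means for PTGS2 was IKKα shRNA, control shRNA, WiDr vehicle, HT29 AZ628, WiDr AZ628 and HT29 vehicle. Of these neighbours, HT29 AZ628 and WiDr AZ628 were the pair whose arrays overlapped.

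The 3 probe sets of PTGS2 gave like values for IKKα shRNA and unlike ones for AZ628. Of all probe sets, 30.3% were called for IKKα shRNA, 39.9% for AZ628 in WiDr and 38.9% for AZ628 in HT29. Their log2 differences for IKKα shRNA against control shRNA were 2.27, 2.37 and 2.36, and all 3 passed. For AZ628 in WiDr they were -0.05, -1.18 and -0.44, of which the last 2 passed, and in HT29 they were 0.09, 0.71 and 0.22, of which only the 0.71 of the brightest passed. The dimmest probe set read 3.62, 3.82 and 3.90 with AZ628 and 3.90, 3.70 and 3.91 with vehicle in WiDr, below the first quartile of gene levels, which was 4.702. The difference between the lines passed for 1 of the 3, where 5.74% of all probe sets were called, at 1.89, while the others gave 0.15 (adjusted p = 0.706) and 0.66 (adjusted p = 0.0577). With the 3 averaged, PTGS2 changed by -0.56 (adjusted p = 1e-05) in WiDr and 0.34 (adjusted p = 0.0017) in HT29, with a difference between the lines of 0.90 (adjusted p = 3.7e-05).

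PTGS1, the other cyclooxygenase, also moved in opposite directions in the lines under AZ628, and in each line the other way from PTGS2. In WiDr it stood at 8.42, 8.50 and 8.28 with AZ628 and 6.87, 6.96 and 6.92 with vehicle. Here the AZ628 arrays were above all other arrays, by 1.48 over vehicle on the log2 scale (SE 0.06, 2.80-fold, adjusted p = 9.44e-13). In HT29 it stood at 6.86, 6.94 and 6.91 with AZ628 and 7.38, 7.47 and 7.47 with vehicle, again with no overlap, and fell by 0.53 on the log2 scale (SE 0.06, adjusted p = 6.75e-07). The response in HT29 minus the response in WiDr was -2.02 (SE 0.08, adjusted p = 8.35e-11).

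The rise of PTGS1 in WiDr was present in all 4 of its probe sets, with log2 differences of 0.60 to 1.60. The fall in HT29 was not: it ranged over -0.53 to -0.01 and passed for the brightest probe set only. The difference between the lines passed for 3 of the 4. With IKKα shRNA, PTGS1 read 7.22, 7.14 and 7.21, against 6.93, 6.98 and 6.90 with control shRNA. The difference of 0.26 (SE 0.06, adjusted p = 0.00224) was a rise on the brightest probe set alone, and averaging the 4 gave 0.07 (adjusted p = 0.538).

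Among the prostaglandin E synthases, PTGES2 and PTGES3 fell with AZ628 in both lines, and PTGES was not called with either treatment. PTGES2, the membrane-associated synthase 2, read 9.18, 9.03 and 9.08 with AZ628 against 9.98, 9.91 and 9.94 with vehicle in WiDr. It read 9.32, 9.33 and 9.31 with AZ628 against 10.09, 10.07 and 10.09 with vehicle in HT29. These groups did not overlap, and the log2 difference in WiDr was -0.85 (SE 0.05, adjusted p = 1.8e-10), and in HT29 it was -0.77 (SE 0.05, adjusted p = 8.78e-10).

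With IKKα shRNA, PTGES2 was at 10.10, 10.09 and 10.10, against 9.88, 9.85 and 9.97 with control shRNA, a small rise of 0.19 (SE 0.05, adjusted p = 0.00576). Both of its probe sets passed in all 3 of these comparisons, in the same direction. PTGES3, the cytosolic synthase also known as the HSP90 co-chaperone p23, was 13.09, 13.12 and 13.06 with AZ628 and 13.47, 13.47 and 13.48 with vehicle in WiDr. It was lower with AZ628 by a log2 difference of -0.38 in WiDr (adjusted p = 1.55e-06) and -0.34 in HT29 (adjusted p = 7.21e-06), in all 4 of its probe sets. All 4 are of types named for binding several transcripts. For IKKα shRNA against control shRNA the PTGES3 difference was -0.02 (interval -0.12 to 0.08).

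PTGES, the inducible microsomal synthase that is often raised together with PTGS2, stood at 7.92 on each of the 3 IKKα shRNA arrays and at 7.79, 7.80 and 7.84 with control shRNA. These arrays did not overlap, but the difference of 0.11 did not pass (adjusted p = 0.315, interval -0.05 to 0.27). For AZ628 the PTGES differences were 0.15 in WiDr (adjusted p = 0.126, interval -0.01 to 0.31) and 0.05 in HT29 (adjusted p = 0.689, interval -0.11 to 0.21). PTGES was lower with control shRNA than with vehicle by -0.44 (adjusted p = 0.000737), and lower with IKKα shRNA than with vehicle by -0.33 (adjusted p = 0.00222). Both transduced groups were therefore below the untransduced cells for this gene on its brightest probe set. Of its 3 probe sets, 2 passed in each of these comparisons, both lower. The dimmest gave -0.04 for control shRNA (adjusted p = 0.835) and -0.22 for IKKα shRNA (adjusted p = 0.113).

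HPGD rose with both treatments, and its response to AZ628 was the largest change among the 10 genes. In WiDr it stood at 10.12, 10.13 and 9.90 with AZ628 and at 6.99, 6.67 and 6.97 with vehicle. In HT29 it stood at 11.41, 11.15 and 11.68 with AZ628 and at 8.13, 8.21 and 8.23 with vehicle. All AZ628 arrays lay above all others. The log2 difference in WiDr was 3.17 (SE 0.13, 9.02-fold, adjusted p = 1.1e-12), and in HT29 it was 3.22 (SE 0.13, 9.35-fold, adjusted p = 1.44e-12), at the 99.76th and 99.88th percentiles of absolute change.

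The size of the HPGD rise did not differ detectably between the lines, since the response in HT29 minus the response in WiDr was 0.05 (interval -0.33 to 0.44, adjusted p = 0.929). The level did differ. HT29 was above WiDr by 1.31 with vehicle (adjusted p = 3.31e-07) and by 1.37 with AZ628 (adjusted p = 1.81e-07), and neither pair of groups overlapped. With IKKα shRNA, HPGD read 8.11, 8.11 and 8.43, against 7.13, 7.07 and 7.38 with control shRNA. These groups were apart too, by 1.02 (SE 0.13, 2.03-fold, adjusted p = 5.23e-06). Control shRNA minus vehicle was 0.32 (adjusted p = 0.0823) on the brightest probe set, while 5 of the 8 probe sets passed and their average gave 0.42 (adjusted p = 0.0113). IKKα shRNA minus vehicle was 1.34.

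All 8 probe sets of HPGD rose in each of these 3 comparisons. Most of the 8, the brightest included, are of types named for binding several transcripts, and they need not be independent readings. Their log2 differences spanned 2.90 to 3.65 for AZ628 in WiDr, 3.10 to 3.87 for AZ628 in HT29 and 0.77 to 1.02 for IKKα shRNA. The order of the group means was HT29 AZ628, WiDr AZ628, IKKα shRNA, HT29 vehicle, control shRNA and WiDr vehicle. IKKα shRNA and HT29 vehicle were the neighbours whose arrays overlapped.

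**Figure D2:**
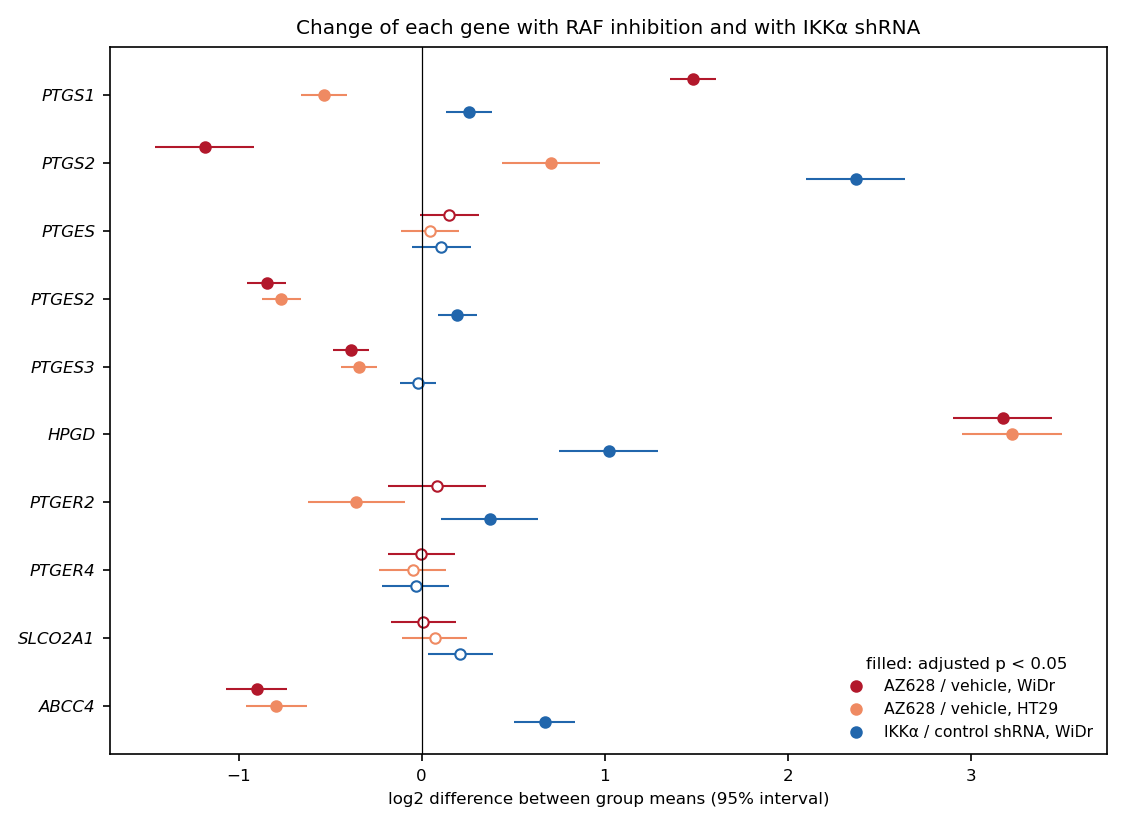
Log2 difference between group means (x axis) with its 95% interval for the 10 genes (y axis), for AZ628 against vehicle in each line and for the IKKα hairpin against the control hairpin. Filled points passed an adjusted p of 0.05. HPGD lies to the right in all 3 comparisons, PTGS2 lies to the left for AZ628 in WiDr and to the right in the others, and PTGES2 and ABCC4 lie to the left for AZ628 in both lines.

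Of the transporters, ABCC4 responded to both treatments in opposite directions, and SLCO2A1 was not called for either on its brightest probe set. ABCC4, the efflux pump also called MRP4, stood at 8.77, 8.87 and 8.73 with AZ628 and at 9.83, 9.64 and 9.61 with vehicle in WiDr. In HT29 it was at 9.19, 9.13 and 9.24 with AZ628 and at 9.98, 9.99 and 9.96 with vehicle. The groups were apart in both lines, with a log2 difference in WiDr of -0.90 (SE 0.08, adjusted p = 2.6e-08) and in HT29 of -0.79 (SE 0.08, adjusted p = 1.59e-07).

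With IKKα shRNA, ABCC4 was at 10.37, 10.44 and 10.61, against 9.76, 9.71 and 9.95 with control shRNA. The rise was 0.67 (SE 0.08, 1.59-fold, adjusted p = 2.25e-06), and the IKKα shRNA arrays lay above every other array of the study. Its 4 probe sets all fell with AZ628 in both lines, by -1.16 to -0.57 in WiDr and -0.79 to -0.71 in HT29, and 3 of the 4 rose with IKKα shRNA. Control shRNA minus vehicle was 0.11 (adjusted p = 0.325) for ABCC4 on the brightest probe set. In that comparison 2 of the 4 probe sets passed, both higher, and the average of the 4 gave 0.26 (adjusted p = 0.0127). HT29 exceeded WiDr by 0.29 with vehicle (adjusted p = 0.00849, but 0.0960 on the brightest probe set left once those named for binding several transcripts were dropped) and by 0.39 with AZ628 (adjusted p = 0.000615).

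SLCO2A1, the prostaglandin importer, stood at the 29.1th percentile of gene means. Its array values lay between 4.65 and 5.32 in all 6 groups. Its differences were 0.01 for AZ628 in WiDr (interval -0.17 to 0.19), 0.07 for AZ628 in HT29 (interval -0.11 to 0.25) and 0.21 for IKKα shRNA against control shRNA (interval 0.03 to 0.39, adjusted p = 0.0621). The last of these passed when its 3 probe sets were averaged (0.16, adjusted p = 0.0336), when dim genes were left out (adjusted p = 0.0475) and without any of 3 single arrays (lowest adjusted p = 0.0238), so its call depends on the setting. Control shRNA was below vehicle by -0.34 (adjusted p = 0.00943).

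The clearest difference of the receptors was between the lines. PTGER2, the EP2 receptor, had 6.13, 5.98 and 5.59 with vehicle in HT29, against 5.0, 5.04 and 5.13 with vehicle in WiDr, and these arrays did not overlap. The difference was 0.85 (SE 0.13, adjusted p = 3.91e-05) on the brighter probe set and 2.12 (adjusted p = 8.5e-08) on the other, where the HT29 vehicle arrays read 5.29, 5.82 and 6.06 and the WiDr vehicle arrays 3.46, 3.48 and 3.88. With AZ628 the lines differed by 0.41 (adjusted p = 0.0177, but up to 0.0721 without any of 3 single arrays) and, on the other probe set, by 1.28.

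AZ628 lowered PTGER2 in HT29 by a margin that differed between its probe sets. The brighter one read 5.45, 5.56 and 5.63 with AZ628 and 6.13, 5.98 and 5.59 with vehicle. These arrays overlapped, the difference was -0.36 (SE 0.13, adjusted p = 0.0291), and the call was lost without any of 4 single arrays (adjusted p up to 0.164). On the other probe set the AZ628 arrays read 5.13, 4.95 and 4.52 in HT29, below all 3 vehicle arrays, and the difference was -0.86 (adjusted p = 0.000919).

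In WiDr the PTGER2 difference with AZ628 was 0.08 (interval -0.18 to 0.35). With IKKα shRNA, PTGER2 read 5.36, 5.14 and 5.01, against 4.71, 5.03 and 4.66 with control shRNA. The arrays overlapped, the difference of 0.37 passed (SE 0.13, adjusted p = 0.0293), and the other probe set gave -0.14 (adjusted p = 0.625). Leaving out any of 4 single arrays took the call away (adjusted p up to 0.144).

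PTGER4, the EP4 receptor, was not called in any comparison on its brighter probe set, which lay at the 16.5th percentile of gene means with array values between 3.85 and 4.24. The other probe set differed between the lines. It read 5.30, 4.60 and 5.25 in HT29 with vehicle, against 3.70, 3.76 and 3.33 in WiDr with vehicle, with no overlap, and the difference was 1.46 (adjusted p = 2.31e-06). It also read 4.47, 4.72 and 4.22 in HT29 with AZ628, lower than with vehicle by a difference of -0.58 (adjusted p = 0.009). The probe set belongs to a type named for binding several transcripts, and what it binds was not tested.

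**Figure D3:**
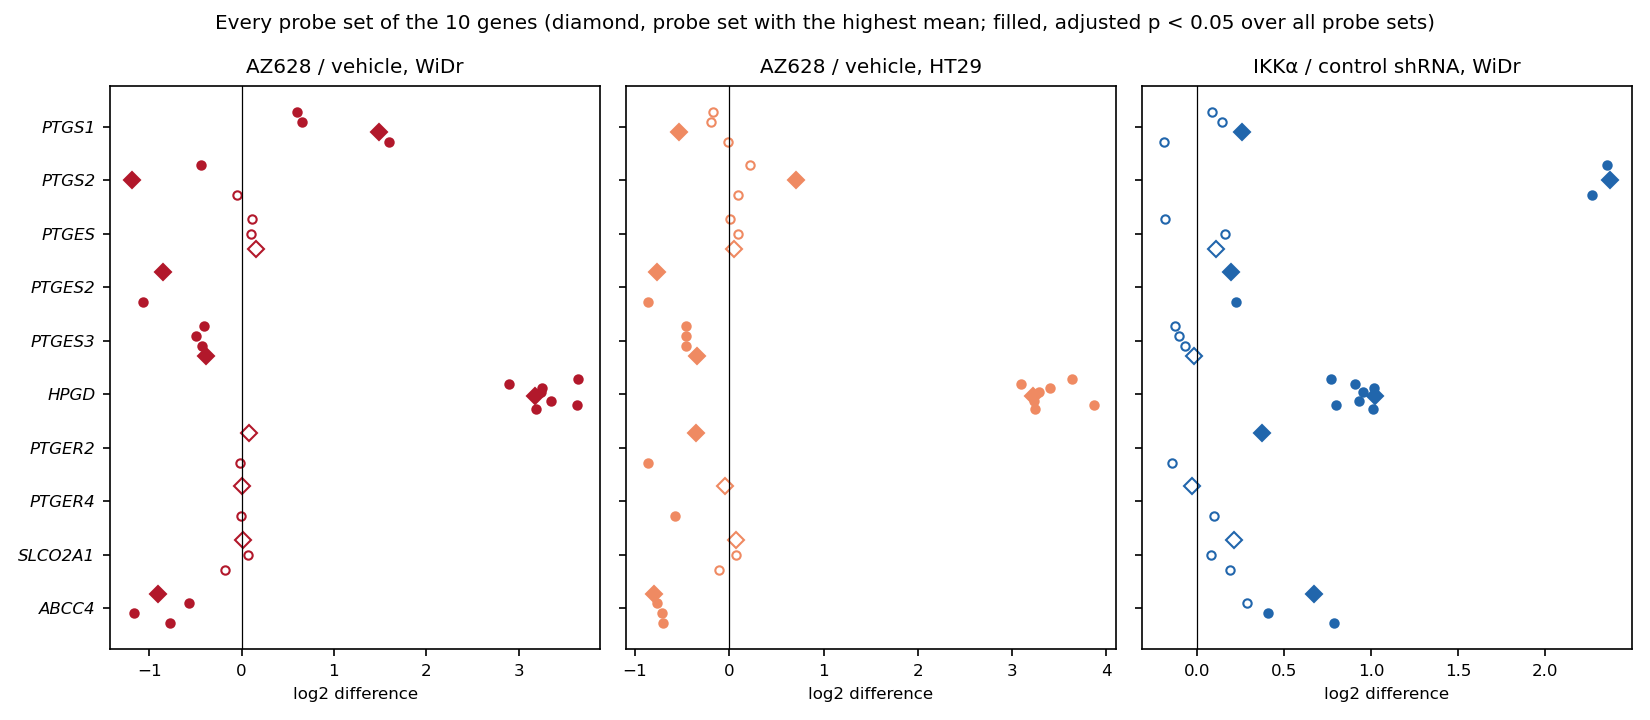
Log2 difference (x axis, a scale of its own per panel) of each of the 35 probe sets, grouped by gene (y axis), for the 2 AZ628 comparisons and for IKKα shRNA against control shRNA. Diamonds are the probe sets with the highest mean, and filled symbols passed an adjusted p of 0.05 over all probe sets. The 8 probe sets of HPGD lie together to the right in each panel, while those of PTGS2 lie together for IKKα shRNA and apart for AZ628.

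Set beside each other over all 10 genes, the lines differed for 6 members with vehicle, 5 higher in HT29 and 1 lower, where 32.2% of all genes were called. With AZ628 they differed for 5 members, 4 higher in HT29 and 1 lower, where 34.4% of all genes were called. PTGS1 switched place: HT29 was above WiDr by 0.52 with vehicle (adjusted p = 1.94e-06) and below it by -1.5 with AZ628 (adjusted p = 3.12e-12). The response to AZ628 itself differed between the lines for 2 members, PTGS1 and PTGS2, where 9.19% of all genes were called. For PTGER2 the difference of responses was -0.44 (interval -0.82 to -0.06, adjusted p = 0.159) on its brighter probe set, and it passed with both averaged (-0.64, adjusted p = 0.00578) and without the third HT29 vehicle array (-0.60, adjusted p = 0.0258).

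The effects of IKKα shRNA and of AZ628 in WiDr, which have separate comparators, differed for 6 members, 4 with the value of IKKα shRNA the greater and 2 with that of AZ628 the greater, where 42.4% of all genes were called. The effect of IKKα shRNA minus that of AZ628 was 3.56 for PTGS2 (adjusted p = 3.48e-11), 1.57 for ABCC4 (adjusted p = 2.3e-09), 1.04 for PTGES2 (adjusted p = 1.67e-09) and 0.36 for PTGES3 (adjusted p = 0.000164). It was -2.15 for HPGD (adjusted p = 2.31e-08) and -1.23 for PTGS1 (adjusted p = 1.47e-09). Against vehicle in place of control shRNA, IKKα shRNA called 6 members, 5 higher and 1 lower, where 36.3% of all genes were called.

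Across the 18 arrays, PTGES2 and ABCC4 had the closest profiles among the members, with a Pearson correlation of 0.931, and HPGD and PTGES3 the most opposed, at -0.948. PTGS2 and HPGD correlated at -0.377. The arrays fall in 6 groups, so these values describe how the groups lie and carry no test. The genes outside the set most like PTGS2, among 4166 whose group means spanned at least 1 log2 unit, were SERPINH1 (0.983), CD163L1 (0.967), NHSL1 (0.961), FGF13 (0.958) and CKAP4 (0.956), by Pearson correlation over the arrays. Those most like HPGD were SELENOP (0.992), ACVR1B (0.989), ZSCAN2 (0.985), ADI1 (0.983) and NAGK (0.979). By rank correlation 1 of the 5 genes stayed among the first 5 for PTGS2 and 0 of the 5 for HPGD.

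Upstream of the cyclooxygenases, genes of arachidonate release and re-esterification included calls in both directions. Of 14 measured genes, 5 rose and 2 fell with AZ628 in WiDr, 5 rose and 3 fell with AZ628 in HT29, and 3 rose and 6 fell with IKKα shRNA. That is 7, 8 and 9 of 14, where 44.6%, 43.6% and 34.9% of all genes were called. Their median log2 differences were 0.10, 0.09 and -0.0057, while the medians over all genes were -0.0005, 0.0048 and 0.02. Of the 16 listed genes, PLA2G4B and ACSL3 were not analysed here.

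PLA2G4A, the cytosolic phospholipase A2 that frees arachidonate for the cyclooxygenases, fell with AZ628 and rose with IKKα shRNA. It read 7.84, 7.88 and 7.66 with AZ628 against 8.78, 8.66 and 8.83 with vehicle in WiDr. It read 10.24, 10.27 and 10.36 with IKKα shRNA against 9.44, 9.33 and 9.31 with control shRNA. The arrays did not overlap in either pair, and the differences were -0.96 for AZ628 in WiDr (adjusted p = 6.92e-09), -1.21 for AZ628 in HT29 (adjusted p = 4.36e-10) and 0.93 for IKKα shRNA (adjusted p = 2.71e-08). Control shRNA was above vehicle by 0.60 (adjusted p = 3.81e-05).

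PLA2G10, a secreted phospholipase A2, rose with AZ628 in both lines. It read 8.93, 8.96 and 8.91 with AZ628 against 5.86, 6.0 and 6.30 with vehicle in WiDr, and 9.20, 9.41 and 9.11 with AZ628 against 8.09, 7.76 and 7.98 with vehicle in HT29. The differences were 2.88 (adjusted p = 5.53e-13) and 1.29 (adjusted p = 2.34e-08), so the AZ628 levels of the lines were closer than the vehicle levels. PLAAT3, another phospholipase, fell by 1.05 on the log2 scale in WiDr, by 0.85 in HT29 and by 0.35 with IKKα shRNA. ACSL4, which activates arachidonate for storage in lipids, fell by 0.86 on the log2 scale with IKKα shRNA (adjusted p = 6e-06) and was not called with AZ628.

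Among the other prostanoid synthases and the prostaglandin reductases, 13 of 14 listed genes were measured, AKR1B1 not being analysed here. With AZ628, 5 rose and 4 fell in each line, where 44.6% of all genes were called in WiDr and 43.6% in HT29. With IKKα shRNA 3 rose and 6 fell, where 34.9% of all genes were called. The medians were -0.0053, 0.05 and -0.18. AKR1C1 and AKR1C2, aldo-keto reductases that act on steroids and prostaglandins, rose in all 3 comparisons, and since they are near-identical paralogs their probe sets may share signal. AKR1C1 stood at 11.89, 11.95 and 11.78 with AZ628 against 9.71, 9.51 and 9.59 with vehicle in WiDr, and at 11.56, 11.74 and 11.66 with IKKα shRNA against 9.33, 9.50 and 9.56 with control shRNA.

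Its log2 differences were 2.27 for AZ628 in WiDr (adjusted p = 7.36e-13), 1.24 for AZ628 in HT29 (adjusted p = 2.33e-09) and 2.19 for IKKα shRNA (adjusted p = 3.66e-12). Those of AKR1C2 were 2.07, 1.26 and 2.22. PTGR1, a reductase that acts on prostaglandins after HPGD has oxidised them, rose with AZ628 by 1.03 in WiDr (adjusted p = 6.06e-11) and 1.08 in HT29 (adjusted p = 4.63e-11), and fell by 0.40 on the log2 scale with IKKα shRNA (adjusted p = 2.32e-05).

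TBXAS1, the thromboxane synthase, fell in all 3 comparisons. Its differences were -0.92 in WiDr and -1.04 in HT29 with AZ628, and -1.18 with IKKα shRNA (adjusted p = 4.49e-07). Control shRNA was above vehicle for this gene by 0.59 (adjusted p = 0.00289), and IKKα shRNA was below vehicle by -0.60. The other 7 prostanoid receptors hardly appeared among the calls: 0 passed with AZ628 in WiDr, 0 with IKKα shRNA, and in HT29 with AZ628 only PTGDR2, a prostaglandin D2 receptor, passed (-0.36, adjusted p = 0.0122). By limma at an unadjusted p below 0.05 these counts were 0 and 0 as well, with PTGDR2 again the 1 in HT29. Of all genes, 44.6% were called with AZ628 in WiDr, 34.9% with IKKα shRNA and 43.6% with AZ628 in HT29. Some of these receptors were dim, with PTGDR at 2.81 and PTGFR at 4.31 with vehicle in WiDr. Both lie below the first quartile of gene levels, 4.702, so their differences may be understated.

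**Figure D4:**
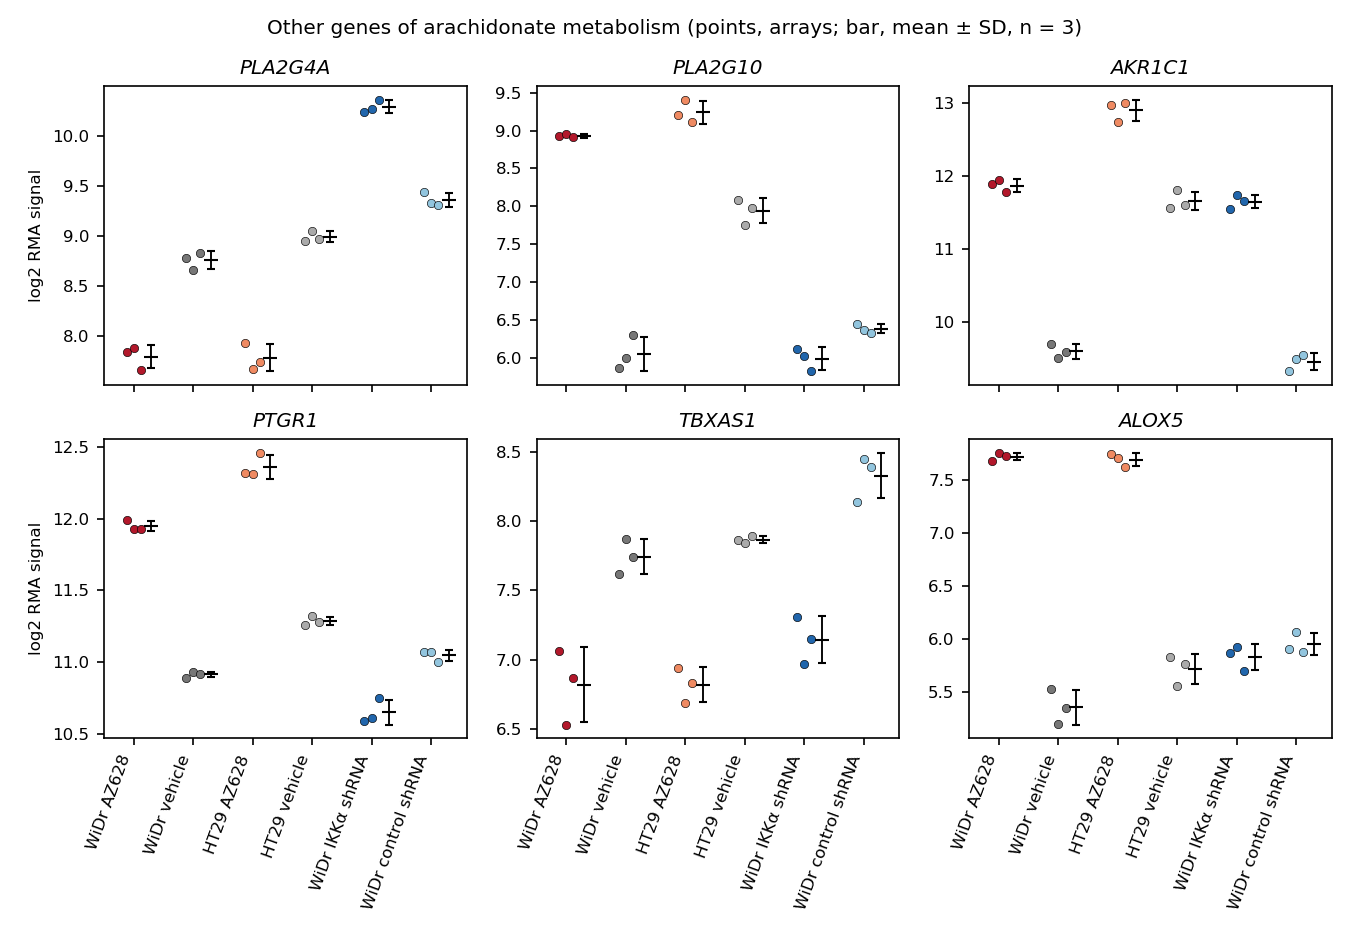
Log2 RMA signal (y axis, a scale of its own per panel) of 6 other genes of arachidonate metabolism on the arrays of the 6 groups (x axis), with points for arrays and bars for the mean ± SD of 3 arrays. PLA2G4A was lowest on the AZ628 arrays and highest with IKKα shRNA, and ALOX5 was highest on the AZ628 arrays of both lines.

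The lipoxygenase and leukotriene branch, which competes for the same substrate, was mostly not called. Of 15 measured genes among 18 listed, 2 rose with AZ628 in WiDr and 3 in HT29, with 0 falling in either (0 also by limma at an unadjusted p below 0.05), and 1 fell with IKKα shRNA, all below the 44.6%, 43.6% and 34.9% of all genes called. LTB4R2, GGT1 and DPEP1 were not analysed here. The medians were 0.03, 0.06 and -0.0009. Some of these genes were dim, with CYSLTR1 at 3.14, ALOX12 at 3.16 and DPEP2 at 3.67 with vehicle in WiDr. These levels lie below the first quartile of gene levels, 4.702, so differences of such genes may be understated. ALOX5, the 5-lipoxygenase that starts leukotriene synthesis, read 7.68, 7.75 and 7.72 with AZ628 against 5.53, 5.20 and 5.35 with vehicle in WiDr, and 7.74, 7.70 and 7.62 with AZ628 against 5.83, 5.56 and 5.77 with vehicle in HT29.

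ALOX5 thus rose by 2.36 in WiDr (5.12-fold, adjusted p = 4.48e-13) and 1.97 in HT29 (3.91-fold, adjusted p = 6.38e-12), and its difference for IKKα shRNA was -0.12 (adjusted p = 0.326). LTA4H, the leukotriene A4 hydrolase, rose with AZ628 by 0.64 in WiDr (adjusted p = 1.07e-07) and 0.59 in HT29 (adjusted p = 3.2e-07), and fell by 0.55 on the log2 scale with IKKα shRNA (adjusted p = 1.67e-06). LTB4R, a leukotriene B4 receptor, rose in HT29 (0.59, adjusted p = 0.00129) and gave -0.15 in WiDr (adjusted p = 0.435).

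Proteins that bind AU-rich elements control how long messenger RNAs such as that of PTGS2 last. All 9 listed were measured, and 4 rose and 3 fell with AZ628 in each line, while 1 rose and 2 fell with IKKα shRNA. The shares over all genes were 44.6% in WiDr and 43.6% in HT29 with AZ628 and 34.9% with IKKα shRNA, and the 3 of 9 called with IKKα shRNA lie near the last of these. The medians were 0.11, -0.09 and 0.04. ZFP36, also called tristetraprolin, which promotes decay of such messengers, rose with AZ628 by 0.41 in WiDr (adjusted p = 0.00484) and 0.75 in HT29 (adjusted p = 1.49e-05). Its relative ZFP36L2 rose by 0.62 in WiDr (adjusted p = 6.76e-06) and 0.24 in HT29 (adjusted p = 0.0293), and fell by 0.86 on the log2 scale with IKKα shRNA (adjusted p = 2.9e-07).

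TIA1, which restrains translation of such messengers, rose with AZ628 by 0.82 in WiDr and 1.45 in HT29. HNRNPD, also called AUF1, fell in all 3 comparisons, by 0.73, 0.67 and 0.50 on the log2 scale. The TIA1 difference for IKKα shRNA was 0.36 (adjusted p = 0.0697).

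Of 12 transcription factors known from the PTGS2 promoter, all measured, 4 rose and 3 fell with AZ628 in WiDr, 3 rose and 6 fell with AZ628 in HT29, and 1 rose and 2 fell with IKKα shRNA, against 44.6%, 43.6% and 34.9% of all genes called. The medians were 0.16, -0.17 and -0.04. ETV4, an ETS factor downstream of ERK, fell by 2.56 on the log2 scale in WiDr (adjusted p = 7.85e-11) and by 3.00 in HT29 (adjusted p = 1.31e-11). JUN, a subunit of AP-1, rose with AZ628 by 1.0 in WiDr (adjusted p = 6.6e-09) and 1.5 in HT29 (adjusted p = 3.71e-11).

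FOS, the other classic subunit of AP-1, differed between groups more than any other factor named here. It read 11.20, 10.79 and 10.92 with AZ628 against 11.12, 11.05 and 11.30 with vehicle in WiDr, overlapping groups with a difference of -0.19 (adjusted p = 0.496). In HT29 it read 7.32, 7.31 and 7.23 with AZ628 against 8.42, 8.95 and 9.56 with vehicle, and fell by 1.69 on the log2 scale (adjusted p = 8.32e-07). It read 7.82, 7.94 and 8.15 with IKKα shRNA against 9.68, 9.55 and 9.75 with control shRNA, also a difference of -1.69 (adjusted p = 1.55e-06). Control shRNA was itself below vehicle, by -1.5 (adjusted p = 4.31e-05). TCF7L2, a Wnt effector, fell with AZ628 by 0.86 on the log2 scale in WiDr and by 0.49 in HT29, and rose by 0.21 with IKKα shRNA (adjusted p = 0.0159).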

How the data were processed

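Total RNA of 18 samples was labelled with a whole-transcript sense assay, per the labels' protocols, and hybridised to Affymetrix arrays. The deposited values are on the log2 scale, 1 per probe set and array. The authors used RMA, limma and R 3.0.2, per the submitters' processing notes. RMA gives all arrays about the same distribution and shrinks small signals, so shifts shared by most genes cannot be seen and differences of dim genes are understated. Of 49395 probe sets, the platform annotation gave 44994 a single symbol, 1832 several and 2569 none, and only those with a single symbol were used. Of the probe sets of a gene, that with the highest mean over all arrays stood for it, with no filter on dim genes. The number of arrays limits the precision.

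In R 4.3.3 with limma 3.58.1 and data.table (version 1.17.8), lmFit took all 18 arrays with the 6 groups as the only term, and eBayes was run at its defaults (12 residual and 4.49 prior degrees of freedom) for 9 contrasts, with Benjamini-Hochberg adjustment over 18132 genes, or 44994 probe sets, per contrast, at 0.05. Intervals are 95% and unadjusted. The model was tested on simulated data. Python 3.11.15 and matplotlib 3.10.9 served for the figures. Promoters and motifs were read from RefSeq tables of GRCh38.p14. No arrays were identical. The same-numbered arrays of different groups did not deviate together, so replicate numbers were not used as a block.

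The members, the gene lists, the comparisons and the alternatives were chosen with earlier results of these data known. Named genes were all members, up to 4 of each of 6 pathway lists with the largest absolute change among those called for AZ628 in either line or IKKα shRNA against control shRNA, and the 5 genes most like PTGS2 and HPGD. Alternatives were leaving out single arrays, averaging probe sets, testing each probe set, leaving out dim genes or probe sets that bind several transcripts, repeated quantile normalization, fitting only the groups compared, a trended and robust spread, and the replicate block.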

Additional observations from a re-analysis of the deposited data

Results flagged for a closer look

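The response to AZ628 differed between HT29 and WiDr for 9 genes named above, by a test of the difference itself, given as the log2 response in HT29 minus the log2 response in WiDr. Both cyclooxygenases were among them, PTGS1 at -2.02 (adjusted p = 8.35e-11) and PTGS2 at 1.89 (adjusted p = 2.54e-06). Of the genes that supply or use arachidonate, PLA2G10 differed by -1.59 (adjusted p = 3.37e-06) and LTB4R by 0.73 (adjusted p = 0.0188). The paralogs AKR1C1 and AKR1C2 differed by -1.03 (adjusted p = 3.82e-05) and -0.81 (adjusted p = 2.92e-05). Of the transcription factors, FOS differed by -1.50 (adjusted p = 0.00132), JUN by 0.51 (adjusted p = 0.0063) and TCF7L2 by 0.36 (adjusted p = 0.0145). Over all genes, 9.19% were called in this comparison. The genes tested here were the 10 members and those named from the 6 pathway lists. The latter were named for large called changes in these same data, many with AZ628, so the count of 9 cannot be set against that share. In groups of 3 arrays no single array was tested for standing apart.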

How the results depend on the processing

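The called values of PTGS2 and HPGD, and those of PTGS1 for AZ628 and between the lines, kept their direction and their side of the threshold on the brightest probe set, and with the probe sets of a gene averaged, in all alternatives run. Other probe sets did not pass in every comparison, and for PTGS2 with AZ628 in HT29, for its difference between the lines' responses and for PTGS1 with AZ628 in HT29, the brightest alone passed. The value that reversed was that of PTGER4 for HT29 against WiDr with AZ628, which was -0.05 on its brightest probe set and 0.42 (adjusted p = 0.000646) as the mean of both. The number of members called for control shRNA against vehicle was 3, but 5 with the probe sets of a gene averaged and 6 when each probe set was tested and a member counted by any of them. Leaving out each array in turn, the number of members called was 6 to 6 for AZ628 in WiDr, 6 to 7 for AZ628 in HT29, 5 to 7 for IKKα shRNA against control shRNA, 5 to 6 for IKKα shRNA against vehicle, 3 to 3 for control shRNA against vehicle, 5 to 6 for HT29 against WiDr with vehicle, 4 to 6 for HT29 against WiDr with AZ628, 2 to 3 for the difference of the AZ628 effects and 6 to 6 for IKKα shRNA minus AZ628. PTGES2 between the lines with vehicle (0.14, adjusted p = 0.0426) lost its call in several of these fits (adjusted p up to 0.129). The arrays share replicate numbers without pairing, and with the replicate block 2 of 90 member calls changed: PTGS2 in HT29 against WiDr with AZ628 was gained (0.29, adjusted p = 0.0284) and PTGES2 in HT29 against WiDr with vehicle was lost (0.14, adjusted p = 0.0508).
Leaving out dim genes kept 14152 genes and 9 members, and leaving out probe sets that bind several transcripts kept 16703 genes and 9 members. PTGER4 lies below the first quartile of gene levels, where RMA compresses differences, so small changes in it may be missed.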
